A study of Homo sapiens with 10 samples.

Results

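The genes described here are 45 genes of autophagy, the lysosome and the aggresome, followed in HBL2 and JEKO, lines of mantle cell lymphoma, in cells resistant to bortezomib and in matched cells. Each member was found by its symbol among probe sets annotated to that gene alone, and the probe set with the highest mean over the 10 arrays stood for it. The 45 members were among 19775 genes with such a probe set, and 43 of them were among the 14529 genes that passed a filter on low values and were tested. ULK2 and WDFY3 did not pass, and their values are given with no test.

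Biotin-labelled total RNA from cultures in logarithmic growth was hybridised to Affymetrix arrays, on 3 arrays for each HBL2 group (PT and BR) and 2 for each JEKO group. BR cells carry the label of resistance induced by bortezomib, a proteasome inhibitor, and PT cells lack it and are taken to be the parental line, which is known of the study but not given by the labels. The labels do not give the drug dose, whether bortezomib was in the medium when RNA was taken, how many resistant derivatives each line had, or whether replicates were separate cultures, and the p-values then cover no more than the spread among these samples, which may be technical. Values are deposited scores without a stated scale, called units here. They run from 0 to 4.99 with a median of 0.73 on every array, and each depends only on a probe set's rank on its array, so a common shift of nearly all genes would leave no trace and no fold change can be given.

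Autophagy encloses cytoplasm in a double membrane and delivers it to the lysosome, where hydrolases digest it. When the proteasome is blocked, ubiquitin-tagged protein gathers in aggresomes, which HDAC6 helps to assemble along microtubules and which cargo receptors such as p62, the product of SQSTM1, link to the growing membrane. The p97 ATPase, encoded by VCP, pulls ubiquitinated proteins out of membranes and complexes ahead of the proteasome, and TFEB and TFE3 are transcription factors that switch on lysosomal and autophagy genes through a short promoter element.

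That element has the letters TCACGTGA, which read the same on both strands. RefSeq promoters (GRCh38.p14, 250 bases before to 50 after each start) were found for 38 of the 45 genes, and 51 such promoters were searched on both strands. The element was present in those of ATG3, LAMP1 and CTSA, in 5.88% of the members' promoters against 0.98% of all 35116 promoters. The shorter CACGTG, which every TCACGTGA contains, was found in 9.8% of the members' promoters, adding ATG14 and CTSD, against 7.26% of all. The match in ATG3 lies after the start and is not shown, and LAMP1 holds another that crosses its start. The windows below show the elements that lie wholly upstream, in capitals, in genes whose changes are given further on.
LAMP1: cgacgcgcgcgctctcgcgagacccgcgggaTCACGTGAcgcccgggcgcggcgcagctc
CTSA: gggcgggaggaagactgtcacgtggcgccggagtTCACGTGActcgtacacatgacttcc
The LAMP1 window is chr13:113297179-113297238 on the plus strand and the CTSA window is chr20:45891275-45891334 on the plus strand. The element begins 29 bases before the start in LAMP1 and 26 bases before it in CTSA. None of these 5 genes was called changed in BR cells of HBL2 or JEKO, as the values below show. A match is a description of letters only, and its absence from a window says nothing about a factor.

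In HBL2, 5 members were called lower in resistant cells and 2 higher, on the probe set tested for each. UVRAG, WIPI1, NPC1, NPC2 and CTSB fell, and TAX1BP1 and VCP rose. The falls ranged from 0.23 units (CTSB) to 0.37 units (NPC2), and the rises were 0.27 units for TAX1BP1 and 0.20 units for VCP. Thus 7 of 43 members (16.3%) were called in HBL2 at a limma adjusted p under 0.05, beside 11.8% of all genes tested, with 5 lower (11.6%, against 6.86%) and 2 higher (4.65%, against 4.91%). Alternatives of the processing ended the VCP call in 13 of 20, the CTSB call in 7, the NPC1 call in 6 and the WIPI1 call in 5. UVRAG lost its call in 2 and TAX1BP1 in 1, and NPC2 kept it in all 20. The 2 passing probe sets of NPC1 changed in opposite directions. The median change of the members was -0.020 units, against -0.00099 for all genes tested. In JEKO, 0 of 43 members were called by limma, beside 4.28% of all genes tested, and 6 members (14%) had an unadjusted p under 0.05, beside 17.6% of all genes. The JEKO contrast rests on 2 arrays a group, and the median standard error of a member's change was 0.081 units there and 0.066 units in HBL2.

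**Figure D1:**
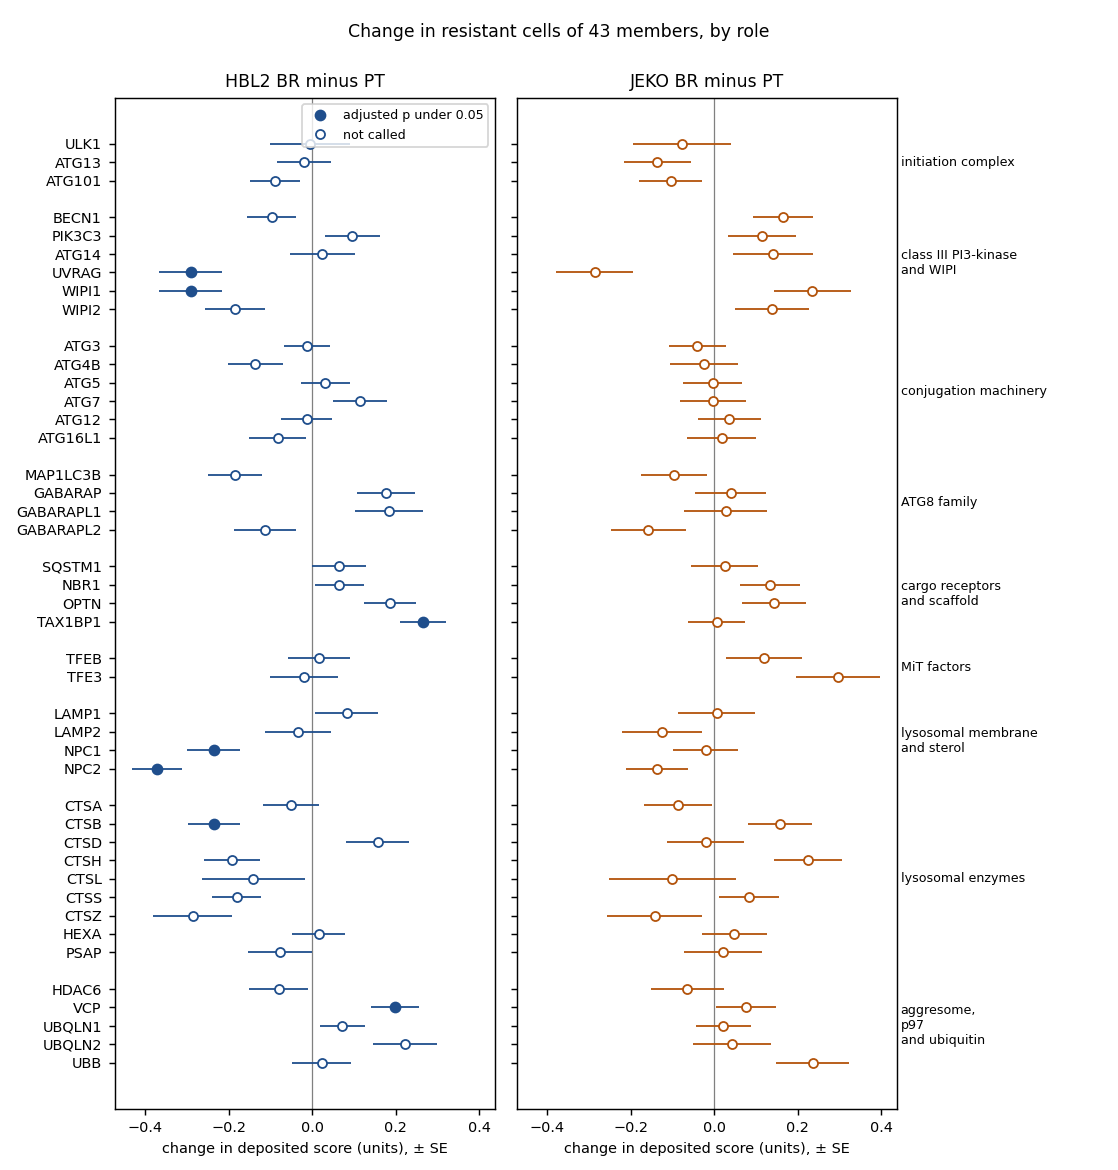
Change in BR against PT cells, in units of the deposited score, for the 43 members tested, ordered by role. Points are the fitted changes and bars their standard errors, with filled points for an adjusted p under 0.05. The 7 filled points lie in the HBL2 panel, from NPC2 at -0.37 to TAX1BP1 at 0.27, and the JEKO panel has none.

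The 6 mantle cell and B cell markers CCND1, SOX11, MS4A1, CD79A, CD79B and PAX5 lay above the median of the probe sets on all 10 arrays, while CD5 did so on 4. Macrophages are rich in lysosomes, and of 6 measured macrophage and myeloid markers CD14 lay below the median on every array and none lay above it on all. The summed score of those 6 markers was 3.34 to 4.25 in HBL2 PT, 2.59 to 2.98 in HBL2 BR, 2.99 to 3.304 in JEKO PT and 2.98 to 3.598 in JEKO BR. It was thus lower in HBL2 BR than in HBL2 PT, as were NPC1, NPC2 and CTSB. The lysosomal members LAMP1, CTSD and HEXA were higher on average in HBL2 BR, by 0.083, 0.16 and 0.016, with no call. LYZ went from 0.93 ± 0.26 (SD, n = 3) to 0.34 ± 0.17 (n = 3) and ITGAM from 0.86 ± 0.011 (n = 3) to 0.47 ± 0.23 (n = 3). The rest of the list moved less: CD163 went from 0.45 to 0.31, CSF1R from 0.705 to 0.698 and MPO from 0.69 to 0.67. CD14 went the other way, from 0.23 to 0.30. The summed score of the 7 measured mantle cell and B cell markers was also lower in HBL2 BR, at 13.5 to 14.3 against 14.6 to 15.3 in HBL2 PT, and CD79A went from 2.52 ± 0.080 (n = 3) to 2.17 ± 0.079 (n = 3). In JEKO the sum of 8 T and NK cell markers was higher in BR, at 5.24 to 5.41 against 4.63 to 4.72. CD7 carried this difference, going from 0.91 ± 0.12 (n = 2) to 1.53 ± 0.19 (n = 2). On average CD2 (0.55 to 0.59) and KLRD1 (0.51 to 0.54) were a little higher in BR, while CD3D, CD3E, CD3G, NKG7 and GNLY were not. Of the 8 markers 4 lay below the median on every array. The part of these markers in the results was not tested. RNA quality was read from the beta-actin controls, 5' minus 3', at -1.25 to -0.58 in HBL2 PT, -1.04 to -0.69 in HBL2 BR, -0.82 to -0.70 in JEKO PT and -1.01 to -0.76 in JEKO BR. The GAPDH controls, 5' minus 3', read -0.44 to -0.27 in HBL2 PT and -0.38 to -0.17 in HBL2 BR. They read -0.39 to -0.30 in JEKO PT and -0.64 to -0.31 in JEKO BR.

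Autophagy starts with the ULK1 kinase and its partners ATG13 and ATG101, and none of these 3 genes was called in HBL2 or JEKO. ULK1, the kinase itself, read 0.95, 0.69 and 0.71 in HBL2 PT and 0.91, 0.82 and 0.60 in HBL2 BR. JEKO gave 1.05 and 1.03 in PT and 0.87 and 1.05 in BR. The groups overlapped in both lines, and the changes were -0.0048 ± 0.096 (SE, adjusted p = 0.985) in HBL2 and -0.077 ± 0.12 (adjusted p = 0.81) in JEKO. ATG13 and ATG101 changed by -0.020 and -0.089 in HBL2 and by -0.14 and -0.10 in JEKO. ULK2, the related kinase, had 4 probe sets, and its brightest one lay between 0.38 and 0.77 on the 10 arrays, at or above the array median on 1 of them.

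The class III PI3-kinase complex marks the membrane where the autophagosome forms. Its catalytic subunit is PIK3C3 (VPS34), its scaffold Beclin 1 (BECN1), and ATG14 or UVRAG directs it to early autophagosomes or to endosomes. UVRAG fell in HBL2: it read 1.52, 1.64 and 1.84 in PT and 1.39, 1.31 and 1.42 in BR. All 3 BR arrays were below all 3 PT arrays, and the change was -0.29 ± 0.075 (SE, limma adjusted p = 0.0175). The JEKO values were 1.84 and 1.86 in PT and 1.63 and 1.497 in BR, again without overlap. That change was of the same size, -0.29 ± 0.092, but did not pass (adjusted p = 0.0966), and the changes of the lines differed by -0.0042 ± 0.12 (adjusted p = 0.989). Leaving out HBL2 PT replicate 3 (adjusted p = 0.0602) or HBL2 BR replicate 2 (adjusted p = 0.0889) ended the HBL2 call. The JEKO change passed with each line fitted alone (adjusted p = 0.0332) and without HBL2 PT replicate 3 (adjusted p = 0.0284). UVRAG was measured by 1 probe set.

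BECN1 was called in neither line. It read 1.64, 1.70 and 1.78 in HBL2 PT and 1.65, 1.62 and 1.57 in HBL2 BR, which overlap. In JEKO PT it read 1.59 and 1.66, below the 1.77 and 1.80 of JEKO BR. The changes were -0.097 ± 0.059 (adjusted p = 0.355) in HBL2 and 0.16 ± 0.072 (adjusted p = 0.245) in JEKO, and their difference was -0.26 ± 0.093 (adjusted p = 0.0966). Its second passing probe set changed by 0.079 in HBL2 and 0.21 in JEKO, so the sign in HBL2 differed between its probe sets. PIK3C3 changed by 0.097 and 0.11 and ATG14 by 0.024 and 0.14 in HBL2 and JEKO, with no call.

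WIPI1 and WIPI2 encode proteins that bind the lipid made by that kinase, and WIPI2 recruits the conjugation machinery. WIPI1 fell in HBL2: its PT arrays read 1.30, 1.32 and 1.33 and its BR arrays 0.96, 0.90 and 1.197. The PT arrays agreed closely, and BR replicate 3 lay nearest to them without overlap. The change was -0.29 ± 0.076 (adjusted p = 0.0178). JEKO WIPI1 went the other way, with 0.91 and 0.81 in PT and 1.06 and 1.13 in BR, a change of 0.23 ± 0.093 that did not pass (adjusted p = 0.189). The changes of the lines differed by -0.53 ± 0.12 (adjusted p = 0.0111), so WIPI1 was 1 of 3 members (6.98%) called for this difference, beside 8.71% of all genes tested. All 3 were lower, beside 5.76% of all genes lower and 2.95% higher, and 10 members (23.3%) had an unadjusted p under 0.05 for it, beside 22.1% of all genes. The other probe set of WIPI1 changed by -0.13 in HBL2, also without overlap, and by 0.074 in JEKO. With it alone, once _s_at and _x_at probe sets were left out, neither the HBL2 change (adjusted p = 0.35) nor the difference between lines (-0.21, adjusted p = 0.372) passed. Percentile ranks (adjusted p = 0.0935) ended the HBL2 call, as did leaving out replicate 2 of HBL2 PT (0.0562) or replicate 1 (0.0809) or 2 (0.106) of HBL2 BR. Removing replicate 2 of JEKO PT (adjusted p = 0.0554) or of JEKO BR (adjusted p = 0.0644) ended the call for the difference between the lines. WIPI2 had the same signs on its brightest probe set, -0.18 in HBL2 (adjusted p = 0.12) and 0.14 in JEKO (adjusted p = 0.462), and was not called for the difference (-0.32, adjusted p = 0.0937).

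**Figure D2:**
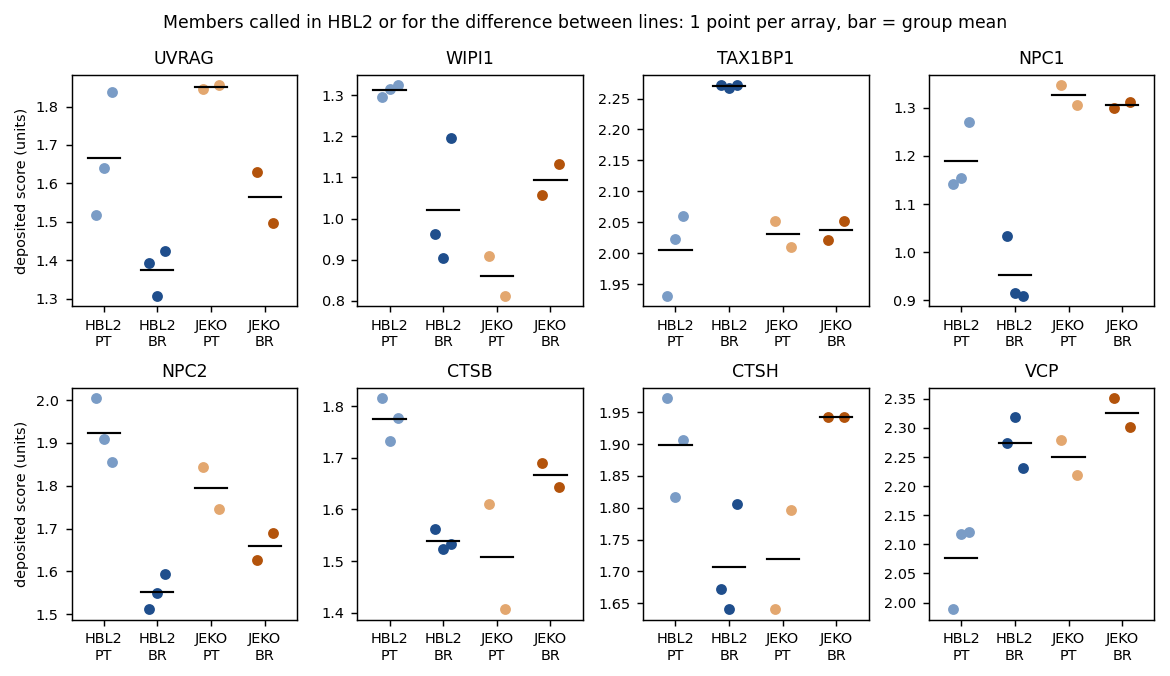
Deposited score, in units, on each of the 10 arrays for the 8 members called in HBL2 or for the difference between the lines. Points are arrays and horizontal bars group means, and each panel has its own vertical range. In HBL2 the BR arrays of TAX1BP1 and VCP lie above all PT arrays, those of the other 6 genes lie below, and WIPI1, CTSB and CTSH turn upward in JEKO.

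The conjugation machinery, ATG3, ATG4B, ATG5, ATG7, ATG12 and ATG16L1, attaches the ubiquitin-like ATG8 proteins to lipid, and none of its 6 genes was called in HBL2 or JEKO. The changes lay between -0.14 (ATG4B) and 0.11 (ATG7) in HBL2 and between -0.040 (ATG3) and 0.036 (ATG12) in JEKO. ATG5, which joins ATG12 in the conjugate that drives lipidation, read 1.83, 1.82 and 1.93 in HBL2 PT and 1.88, 1.95 and 1.85 in HBL2 BR. It read 1.64 and 1.64 in JEKO PT and 1.61 and 1.66 in JEKO BR. BR and PT overlapped in both lines, while every HBL2 array lay above every JEKO array. Its BR changes were 0.032 ± 0.058 (adjusted p = 0.81) and -0.0035 ± 0.071 (adjusted p = 0.989). ATG7, the E1-like enzyme, had HBL2 BR arrays above all PT arrays (change 0.11 ± 0.064), and its 4 probe sets had HBL2 changes of 0.075 to 0.18, but the adjusted p was 0.315.

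The ATG8 family coats the membrane and binds cargo receptors, and its members did not move one way. In HBL2, MAP1LC3B read 1.61, 1.73 and 1.80 in PT and 1.61, 1.52 and 1.45 in BR. The BR arrays lay below the PT arrays, by a narrow margin for replicate 1 of each group. Its change was -0.19 ± 0.065 and did not pass (adjusted p = 0.0786). It passed with the beta-actin covariate (adjusted p = 0.0185) and without HBL2 PT replicate 1 (adjusted p = 0.0262). JEKO arrays read 2.13 and 2.08 in PT and 1.98 and 2.03 in BR, a change of -0.097 ± 0.079 (adjusted p = 0.594). The second probe set of MAP1LC3B also lay lower in BR, by 0.082 in HBL2 and 0.15 in JEKO.

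GABARAPL1 leaned the other way in HBL2, with 0.98, 0.84 and 0.71 in PT and 1.10, 1.04 and 0.94 in BR. BR replicate 3 overlapped PT replicate 1, and the change of 0.18 ± 0.081 did not pass (adjusted p = 0.181). In JEKO it read 0.85 and 0.94 in PT and 0.88 and 0.96 in BR (0.027 ± 0.100, adjusted p = 0.935). GABARAP changed by 0.18 in HBL2 and 0.040 in JEKO, and GABARAPL2 by -0.11 and -0.16, with no call. The ATG8 genes are close relatives, so a probe set of one may bind another.

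Cargo receptors bind ubiquitin-tagged protein on one side and ATG8 proteins on the other. TAX1BP1, one of them, rose in HBL2: its PT arrays read 1.93, 2.02 and 2.06 and its BR arrays 2.27, 2.27 and 2.27. The 3 BR arrays were nearly equal and lay above every other array of the study. The change was 0.27 ± 0.056 (adjusted p = 0.0043), and the other 2 probe sets of TAX1BP1 changed by 0.22 and 0.22. JEKO gave 2.05 and 2.01 in PT and 2.02 and 2.05 in BR, which overlap (0.0055 ± 0.068, adjusted p = 0.982). The changes of the lines differed by 0.26 ± 0.088 (adjusted p = 0.0817), so a difference between them was not shown. The HBL2 call was lost in 1 of 20 alternatives, with _s_at and _x_at probe sets left out (0.22, adjusted p = 0.0874).

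SQSTM1, the gene of p62, is induced by many stresses and is itself degraded by autophagy. It read 1.55, 1.41 and 1.58 in HBL2 PT and 1.55, 1.51 and 1.67 in HBL2 BR. The JEKO values were 1.54 and 1.47 in PT and 1.499 and 1.56 in BR. BR and PT overlapped in both lines on this brightest probe set. The changes were 0.063 ± 0.065 (adjusted p = 0.625) in HBL2 and 0.025 ± 0.080 (adjusted p = 0.922) in JEKO. Of its 5 probe sets 4 passed the filter, with changes from -0.10 to 0.063 in HBL2 and from -0.030 to 0.16 in JEKO. The probe set at -0.10 lay lower without overlap in HBL2 BR, and the one at 0.16 higher without overlap in JEKO BR. OPTN, which encodes optineurin, lay higher without overlap in BR of both lines on its brightest probe set (0.19, adjusted p = 0.0648 in HBL2, and 0.14, adjusted p = 0.358 in JEKO). Its other probe set changed by 0.13 in HBL2 and 0.020 in JEKO, with overlap in both. NBR1 changed by 0.065 and 0.13, with no call. WDFY3, a scaffold for aggregate clearance, had 4 probe sets, of which none passed, and its brightest one lay between 0.47 and 0.79.

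Neither MiT factor was called. TFEB read 2.02, 1.79 and 1.996 in HBL2 PT and 1.87, 1.90 and 2.08 in HBL2 BR, which overlap (0.016 ± 0.074, adjusted p = 0.931). JEKO arrays read 1.92 and 1.90 in PT and 1.97 and 2.10 in BR, a change of 0.12 ± 0.091 (adjusted p = 0.558). TFE3 read 1.76, 1.52 and 1.38 in HBL2 PT and 1.64, 1.47 and 1.49 in HBL2 BR, again overlapping (-0.020 ± 0.081, adjusted p = 0.922). It read 1.40 and 1.39 in JEKO PT and 1.70 and 1.68 in JEKO BR, which were well apart. That change, 0.30 ± 0.100, had the largest size of the JEKO changes of the members and did not pass (adjusted p = 0.113). It passed with each line fitted alone (adjusted p = 0.0243) and without HBL2 PT replicate 1 (0.0352) or HBL2 PT replicate 3 (0.0406). The other 3 probe sets of TFE3 changed by 0.16, 0.20 and -0.0020 in JEKO. The changes of TFE3 in the lines differed by -0.32 ± 0.13 (adjusted p = 0.151).

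**Figure D3:**
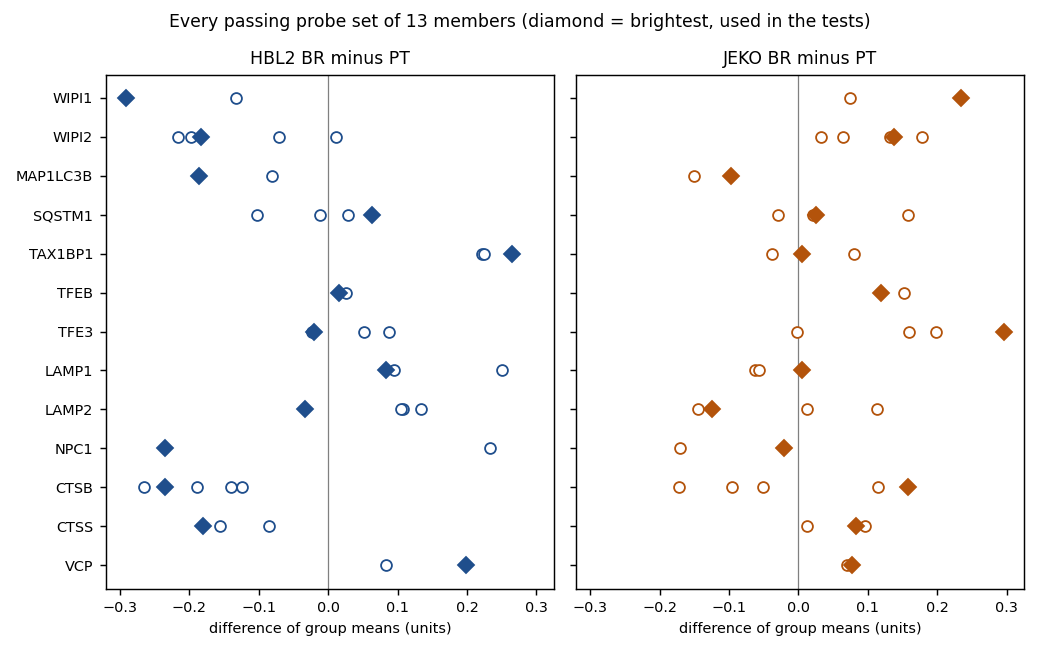
Difference of group means, in units, for every probe set of 13 members that passed the filter. Diamonds are the brightest probe sets, which the tests used, and circles the others. All 5 CTSB and all 3 TAX1BP1 probe sets lie on one side of 0 in HBL2, those of NPC1 lie on both sides (-0.24 and 0.23), and CTSB splits in JEKO.

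LAMP1 and LAMP2 encode the most abundant glycoproteins of the lysosomal membrane, and neither was called. LAMP1 read 2.24, 2.04 and 1.89 in HBL2 PT and 2.16, 2.11 and 2.16 in HBL2 BR (0.083 ± 0.075, adjusted p = 0.565). It read 2.16 and 2.19 in JEKO PT and 2.13 and 2.24 in JEKO BR (0.0057 ± 0.091, adjusted p = 0.985). LAMP2 read 1.96, 1.80 and 2.01 in HBL2 PT and 2.03, 1.89 and 1.74 in HBL2 BR (-0.033 ± 0.079, adjusted p = 0.86). BR overlapped PT in HBL2 for both genes. In JEKO, LAMP2 lay lower in BR without overlap on this probe set, with 1.81 and 1.75 in PT and 1.57 and 1.74 in BR (-0.12 ± 0.096, adjusted p = 0.564). The other LAMP2 probe sets changed by 0.11 (without overlap), 0.10 and 0.13 in HBL2. In JEKO they changed by 0.012, 0.11 and -0.14, the last 2 without overlap. The sign for LAMP2 thus differed between its probe sets in both lines. A second LAMP1 probe set lay higher in HBL2 BR without overlap (0.25).

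NPC2 and NPC1 act in sequence to move cholesterol out of the lysosome, NPC2 in the lumen and NPC1 in the membrane. NPC2 showed the largest change among the members in HBL2. It read 2.004, 1.91 and 1.86 in PT and 1.51, 1.55 and 1.59 in BR, well apart. The change was -0.37 ± 0.061 (adjusted p = 5.6e-04), and the call was kept in all 20 alternatives run. NPC2 was measured by 1 probe set, so alternatives that choose among probe sets could not alter its values. In JEKO NPC2 also lay lower in BR without overlap, with 1.84 and 1.74 in PT and 1.63 and 1.69 in BR, but did not pass (-0.14 ± 0.074, adjusted p = 0.375). The changes of the lines differed by -0.24 ± 0.096 (adjusted p = 0.153).

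NPC1 fell in HBL2 from 1.14, 1.16 and 1.27 to 1.03, 0.92 and 0.91, with BR below PT throughout (-0.24 ± 0.064, adjusted p = 0.0223). In JEKO it read 1.35 and 1.31 in PT and 1.30 and 1.31 in BR (-0.020 ± 0.078, adjusted p = 0.937). Its other passing probe set, which reached the array median on 4 arrays, changed by 0.23 in HBL2, and the median of its probe sets gave a change of -0.0015 (adjusted p = 0.995). NPC1 did not pass with each line fitted alone (adjusted p = 0.0502), nor with replicate 3 of HBL2 PT (0.0737) or replicate 2 (0.0974) or 3 (0.0726) of HBL2 BR left out.

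Promoters of VCP, which rose in HBL2, and of NPC2, the member that fell most, are shown because both hold the letters CCAAT, which of the other called members only WIPI1 also held among the promoters found. Capitals mark CCAAT on either strand, found in 31.4% of the members' promoters and 34.6% of all promoters.
VCP: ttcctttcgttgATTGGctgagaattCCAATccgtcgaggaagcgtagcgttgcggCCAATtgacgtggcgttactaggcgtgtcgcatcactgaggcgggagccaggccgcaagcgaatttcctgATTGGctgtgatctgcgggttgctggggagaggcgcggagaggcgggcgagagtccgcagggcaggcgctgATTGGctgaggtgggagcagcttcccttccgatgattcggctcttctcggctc
NPC2: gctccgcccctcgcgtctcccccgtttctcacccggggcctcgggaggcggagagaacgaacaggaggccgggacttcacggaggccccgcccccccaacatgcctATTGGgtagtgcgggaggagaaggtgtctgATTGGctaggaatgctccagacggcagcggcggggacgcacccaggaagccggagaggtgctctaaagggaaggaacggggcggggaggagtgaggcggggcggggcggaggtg
The VCP window is chr9:35072626-35072875 and the NPC2 window is chr14:74493513-74493762, both on the minus strand and both the 250 bases before a start. The VCP window holds 5 such matches and the NPC2 window 2.

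Among the lysosomal proteases, CTSB, the cysteine protease cathepsin B, fell in HBL2. It read 1.81, 1.73 and 1.78 in PT and 1.56, 1.52 and 1.53 in BR. Each group was tight and the groups lay well apart, and the change was -0.23 ± 0.062 (adjusted p = 0.0204). All 5 of its probe sets lay lower in HBL2 BR, by 0.12 to 0.27. JEKO gave 1.61 and 1.41 in PT and 1.69 and 1.64 in BR, a change of 0.16 ± 0.076 that did not pass (adjusted p = 0.301), and 3 of the 5 probe sets there changed in the opposite direction. The changes of the lines differed by -0.39 ± 0.099 (adjusted p = 0.0198), but by -0.11 (adjusted p = 0.526) where the median of the probe sets was used. It did not pass with replicate 2 of HBL2 BR (adjusted p = 0.0526) or of JEKO PT (0.125), or with replicate 1 (0.0812) or 2 (0.0603) of JEKO BR, left out. The fall in HBL2 did not pass with that median (-0.13, adjusted p = 0.145) or once _s_at and _x_at probe sets were dropped (-0.12, adjusted p = 0.262). Nor did it with replicate 1 of HBL2 PT (adjusted p = 0.0532) or replicate 1 (0.0525), 2 (0.0827) or 3 (0.0536) of HBL2 BR left out.

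CTSH, a cysteine aminopeptidase, was called for the difference between the lines and in neither line by itself, though its HBL2 change passed without HBL2 BR replicate 3 (-0.24, adjusted p = 0.0411). It read 1.97, 1.82 and 1.91 in HBL2 PT and 1.67, 1.64 and 1.81 in HBL2 BR, without overlap but with BR replicate 3 close to PT replicate 2. The JEKO values were 1.64 and 1.80 in PT and 1.94 and 1.94 in BR, and CTSH was measured by 1 probe set. The changes were -0.19 ± 0.066 (adjusted p = 0.0756) in HBL2 and 0.22 ± 0.081 (adjusted p = 0.145) in JEKO, and they differed by -0.42 ± 0.10 (adjusted p = 0.0202). It ended with replicate 1 (adjusted p = 0.0527) or 2 (0.0611) of HBL2 BR, replicate 1 of JEKO PT (0.13) or replicate 1 (0.0678) or 2 (0.0817) of JEKO BR left out. CTSS, a protease of the class II antigen route, had the same signs (-0.18, adjusted p = 0.0562 in HBL2, and 0.083, adjusted p = 0.619 in JEKO) and no call for the difference (-0.26, adjusted p = 0.0915).

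CTSD, the main lysosomal aspartic protease, lay higher in HBL2 BR. It read 1.13, 1.10 and 0.86 in PT and 1.15, 1.25 and 1.16 in BR, separated by a narrow margin, and the change of 0.16 ± 0.075 did not pass (adjusted p = 0.22). JEKO arrays read 0.94 and 0.97 in PT and 0.94 and 0.93 in BR (-0.021 ± 0.092, adjusted p = 0.947). CTSZ lay lower in HBL2 BR without overlap (-0.29 ± 0.094, adjusted p = 0.0584) and was called in 7 of 19 alternatives, namely each line fitted alone, the replicate block, and the removal of replicate 3 of HBL2 PT or of any JEKO array. CTSA, CTSL, HEXA and PSAP changed by -0.14 to 0.016 in HBL2 and by -0.10 to 0.048 in JEKO, all with overlapping groups on the probe sets tested. Of the other HEXA probe sets, 1 lay higher without overlap in HBL2 BR (0.22) and 1 in BR of both lines (0.078 and 0.13). The last one overlapped in both lines. The other PSAP probe set lay lower without overlap in JEKO BR (-0.056). Of the 9 lysosomal enzyme genes 2 had a change above 0 in HBL2, with a median of -0.14, beside 7219 of all 14529 genes. In JEKO 5 of the 9 did, with a median of 0.021, beside 7756 of 14529, and the difference between these counts was not tested.

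In the aggresome, p97 and ubiquitin group, VCP was called in HBL2. It read 1.99, 2.12 and 2.12 in PT and 2.27, 2.32 and 2.23 in BR, with all BR arrays above all PT arrays. The change was 0.20 ± 0.058 (adjusted p = 0.0356), near the threshold, and the other probe set of VCP changed by 0.083, also without overlap. The call did not hold in 13 of 20 alternatives. These included the loss of any single array except replicate 3 of HBL2 PT or of HBL2 BR (adjusted p = 0.0521 to 0.165 for HBL2 arrays). They also included no trend (0.0692), each line fitted alone (0.0764), the median over probe sets (0.106) and the removal of the 3 arrays lowest in beta-actin value. The weakest was the other probe set alone, once _s_at and _x_at probe sets were left out (0.083, adjusted p = 0.476). In JEKO VCP read 2.28 and 2.22 in PT and 2.35 and 2.30 in BR (0.077 ± 0.071, adjusted p = 0.653).

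HDAC6, the deacetylase that couples ubiquitinated cargo to the dynein motor, read 1.74, 1.52 and 1.73 in HBL2 PT and 1.53, 1.57 and 1.65 in HBL2 BR. JEKO gave 1.82 and 1.68 in PT and 1.73 and 1.64 in BR. BR and PT overlapped in both lines, with changes of -0.080 ± 0.071 (adjusted p = 0.556) and -0.065 ± 0.087 (adjusted p = 0.779). UBB, one of the polyubiquitin genes, read 3.55, 3.38 and 3.20 in HBL2 PT and 3.39, 3.40 and 3.41 in HBL2 BR (0.023 ± 0.071, adjusted p = 0.894). It lay higher in JEKO BR, with 3.34 and 3.43 in PT and 3.63 and 3.62 in BR, a change of 0.24 ± 0.087 that did not pass (adjusted p = 0.153). That change passed with each line fitted alone (adjusted p = 0.0293) and without HBL2 PT replicate 3 (0.0359). The ubiquilins UBQLN1 and UBQLN2, which carry ubiquitinated proteins to the proteasome, changed by 0.072 and 0.22 in HBL2 (adjusted p = 0.474 and 0.0721) and by 0.021 and 0.042 in JEKO.

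BR and PT arrays did not overlap for 16 of 43 members in HBL2 (37.2%), beside 27.3% of all genes tested, with 7 higher in BR (16.3%, against 12.8%) and 9 lower (20.9%, against 14.5%). In JEKO they did not overlap for 20 of 43 (46.5%), beside 50.8% of all genes tested, where 2 arrays face 2, with 13 higher (30.2%, against 28.3%) and 7 lower (16.3%, against 22.5%). The HBL2 and JEKO comparisons share no arrays.

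The PT cells of the lines differed in 10 of 43 members (23.3%), beside 23.1% of all genes tested, with 6 higher in HBL2 PT (14%, against 13.9%) and 4 lower (9.3%, against 9.25%). Their arrays did not overlap for 23 members (53.5%), beside 47.1% of all genes, 13 of them higher (30.2%, against 26.3%) and 10 lower (23.3%, against 20.9%). HBL2 PT was higher in WIPI1 (0.45 ± 0.084, adjusted p = 0.00103), NBR1 (0.32), WIPI2 (0.31), CTSB (0.27), ATG5 (0.22) and CTSS (0.19). JEKO PT was higher in PIK3C3 (-0.46 ± 0.074 for HBL2 minus JEKO, adjusted p = 2.77e-04), PSAP (-0.44), MAP1LC3B (-0.39) and UBQLN1 (-0.21). PIK3C3, PSAP and MAP1LC3B kept this call in every alternative that tested them, and CTSS in 6 of 18. WIPI2, ATG5 and UBQLN1 did not pass without replicate 1 or without replicate 2 of JEKO PT, nor CTSB without the latter. PSAP, the precursor of the saposins that help lipid-degrading enzymes, read 2.34, 2.22 and 2.06 in HBL2 PT and 2.56 and 2.72 in JEKO PT. PIK3C3 read 1.27, 1.26 and 1.201 in HBL2 PT and 1.60 and 1.81 in JEKO PT. All 3 probe sets of ATG5 and both of MAP1LC3B had the same sign of this difference. This comparison shares its PT arrays with the BR minus PT comparisons of each line, so the values are given side by side only. WIPI1, CTSB and CTSH, the members whose BR changes differed between the lines, read 1.31, 1.77 and 1.90 on average in HBL2 PT and 0.86, 1.51 and 1.72 in JEKO PT.

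**Figure D4:**
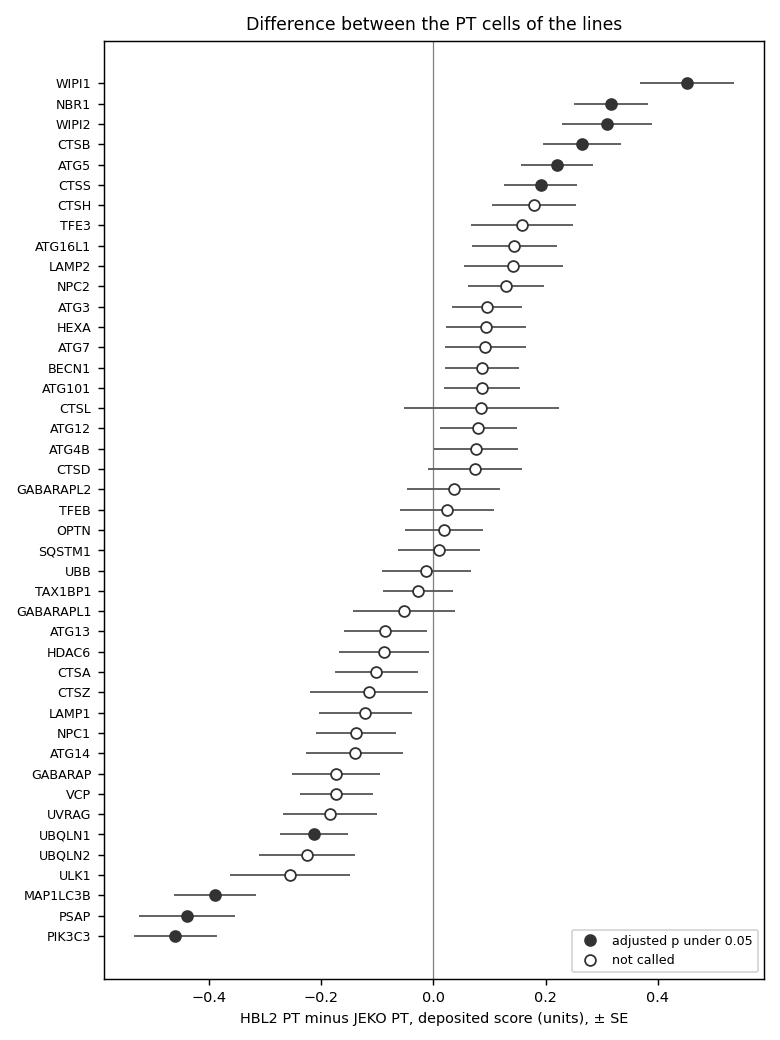
Difference between HBL2 PT (3 arrays) and JEKO PT (2 arrays) in units of the deposited score, with its standard error, for the 43 members tested in order of size. Filled points have an adjusted p under 0.05, and they run from PIK3C3 at -0.46 to WIPI1 at 0.45.

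Other genes of these pathways were taken as 8 lists, of which 190 genes were tested. In HBL2 10 rose and 16 fell (13.7%), and in JEKO 6 rose and 5 fell (5.79%), beside the 11.8% and 4.28% of all genes tested. The median changes over the 190 genes were -0.0097 and 0.032 units. Calls in HBL2 were spread over all 8 lists, while those in JEKO lay in 4 of them.

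Of 25 other autophagy genes 3 fell in HBL2 and 0 rose (12% called, beside 11.8% of all genes tested). They were VAMP8 (-0.34, adjusted p = 6.79e-04), a SNARE that fuses the autophagosome with the lysosome, ATG9A (-0.27), a lipid scramblase, and TMEM41B (-0.20), an ER scramblase. In JEKO 0 of these 25 were called by limma at the same threshold, beside 4.28% of all genes tested. Of 16 selective receptor genes RETREG1, an ER-phagy receptor (-0.52, adjusted p = 0.00158), and the mitophagy receptor BNIP3 (-0.28) were called lower in HBL2, and 0 were called in JEKO. Those shares, 12.5% and 0%, stand beside 11.8% and 4.28% of all genes tested. RETREG1 passed the filter only through HBL2 PT, at 1.08, 1.10 and 0.86, and lay below the array median of 0.73 elsewhere. BNIP3 passed only through JEKO, at 2.37 to 2.79. In HBL2 it lay below the median throughout, with 0.58, 0.68 and 0.63 in PT and 0.30, 0.42 and 0.33 in BR.

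Of 29 other lysosomal hydrolases FUCA1, the lysosomal fucosidase (-0.49, adjusted p = 1.21e-04), IDS (-0.24) and GAA (-0.21) fell and the acid phosphatase gene ACP2 rose (0.21) in HBL2. In JEKO the galactosidase GLA (-0.35) and the protease CTSC (-0.34) fell and the legumain gene LGMN rose (0.49). The shares called were 13.8% in HBL2 and 10.3% in JEKO, beside 11.8% and 4.28% of all genes tested. Among 24 membrane and trafficking genes GRN, the progranulin gene (-0.32), and LAPTM4A (-0.27) fell and LAPTM4B rose (0.33) in HBL2. LAPTM4B fell in JEKO (-0.39, adjusted p = 0.0215), where VPS18 (0.34), LAPTM5 (0.33) and GM2A (0.33) rose. LAPTM4B was thus called in both lines, in opposite directions. For this list the shares called were 12.5% in HBL2 and 16.7% in JEKO. Of 17 proton pump subunits TCIRG1 fell (-0.504, adjusted p = 5.92e-04) and ATP6V0A2 rose (0.305) in HBL2, and 0 were called in JEKO. Both encode forms of the same membrane subunit. The share of pump subunits called in HBL2 was 11.8%, beside 11.8% of all genes tested.

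Of 34 genes of mTORC1 and MiT control 3 rose and 2 fell in HBL2 (14.7% called, beside 11.8% of all genes tested). FNIP2, a folliculin partner (0.36), RRAGD, a Rag GTPase that mTORC1 needs to hold TFEB in the cytoplasm (0.34, adjusted p = 0.005), and PRKAA1, an AMPK catalytic subunit (0.27), rose. DEPDC5 of the GATOR1 complex (-0.36) and LAMTOR4 of the Ragulator (-0.27) fell. In JEKO DDIT4, an mTORC1 inhibitor, rose (0.39, adjusted p = 0.0126) and TFEC, a further MiT factor, fell (-0.52). That was 5.88% of the list, beside 4.28% of all genes tested.

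Partners of p97 moved both ways in HBL2, with 3 of 25 higher and 2 lower (20% called, beside 11.8% of all genes tested). SELENOS (0.32, adjusted p = 0.00423), DERL2 (0.26) and PLAA (0.23) rose, and the UBX-domain genes FAF1 (-0.52, adjusted p = 9.24e-06) and UBXN7 (-0.27) fell. SELENOS and DERL2 recruit p97 to the ER membrane. Of 20 aggresome transport and ubiquitin genes DYNC1H1, the dynein heavy chain, rose in HBL2 (0.54, adjusted p = 3.06e-05) and the dynein intermediate chain DYNC1I2 fell (-0.23). In JEKO the chaperone gene DNAJB6 rose (0.37) and the kinesin gene KIF5B fell (-0.29). The share of this list called was 10% in HBL2 and 10% in JEKO, beside 11.8% and 4.28% of all genes tested.

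**Figure D5:**
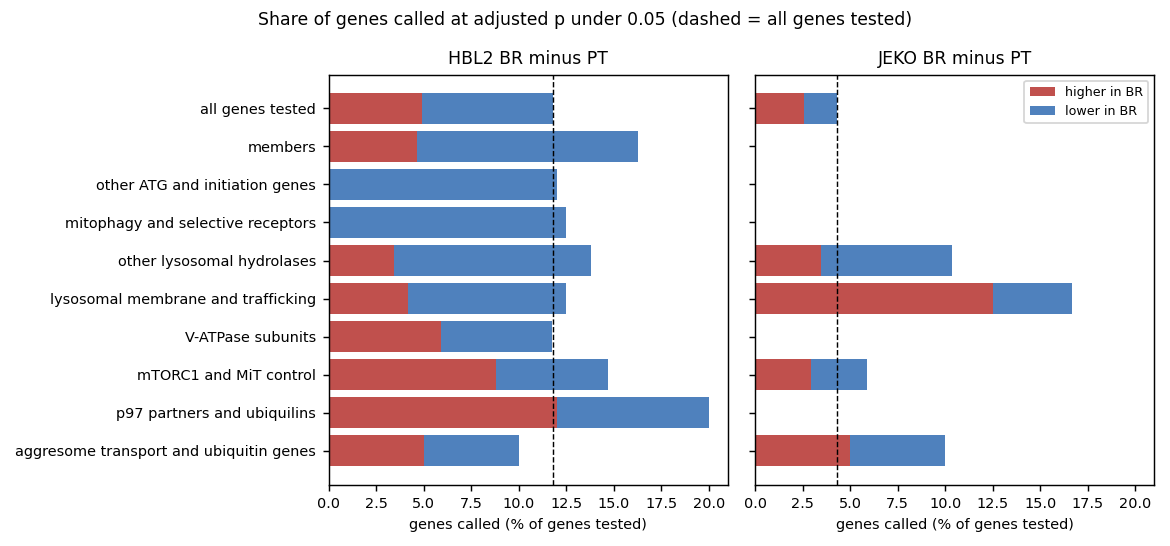
Share of tested genes called at an adjusted p under 0.05 in each line, for all 14529 genes, the 43 members and the 8 other pathway lists, split into genes higher and lower in BR. The dashed lines mark all genes tested (11.8% in HBL2 and 4.28% in JEKO), and the members stand at 16.3% and 0%.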

How the data were processed

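Gene expression of 10 cell line samples was read from 1 series table of 54675 probe sets. The authors deposited scores of unstated scale and log base. Per the submitters' processing notes MAS5 was used, with its version and any later step not given in the sources used here. Sorted deposited scores were identical on all arrays (largest difference 0). Platform annotation gave 41091 probe sets 1 symbol, 1801 several and 11721 none, and 62 were controls. Probe sets were kept if they reached the 50th percentile of an array on 2 arrays or more, and the brightest stood for its gene. The 119 probe sets of members included several for 33 genes.

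The fit used limma 3.58.1 under R 4.3.3 (lmFit and eBayes with trend, 4 group means, 6 residual and 9.89 mean prior degrees of freedom, two-sided, Benjamini-Hochberg over 14529 genes, called under 0.05). The ± value is the standard error of a change or the SD of a mean. Members and lists were chosen with earlier results of these data known. Members called in a line or for the difference of the lines, and 15 preset members, are given array by array. Of the other lists, at most 4 called genes a list and line, those with the largest changes, are named. The planned log2 step was not applied, since the scores already look logarithmic. The script was tested on simulated data. The number of arrays limits the precision. Alternatives comprised other filters, no trend, other probe set rules, percentile ranks, separate fits, a replicate block, a beta-actin covariate and leaving out arrays.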

Additional observations from a re-analysis of the deposited data

Results flagged for a closer look

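The change in BR cells differed between HBL2 and JEKO for 3 members, by limma's test of the difference of the changes (6.98% of 43, beside 8.71% of all genes tested). For WIPI1 the difference was -0.53 (adjusted p = 0.0111), for CTSB -0.39 (adjusted p = 0.0198) and for CTSH -0.42 (adjusted p = 0.0202). All 3 lay lower in HBL2 BR and higher in JEKO BR on the probe set tested. The JEKO changes did not pass by themselves, nor did the HBL2 change of CTSH (adjusted p = 0.0756), and 3 of the 5 CTSB probe sets lay lower in JEKO BR too. Groups of 3 or 2 arrays are too small to look for outlying arrays by a test.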

How the results depend on the processing

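Members called in HBL2 numbered 7, against 4 with the median over probe sets, 3 without _x_at and _s_at probe sets (30 members tested), 11 with the beta-actin covariate, 4 once the 3 arrays lowest in beta-actin value were removed (UVRAG, WIPI1, TAX1BP1 and NPC2, in an alternative chosen after seeing the data) and 2 to 7 without any 1 array (2 without HBL2 BR replicate 2, namely TAX1BP1 and NPC2). In JEKO 0 were called, against 3 with each line fitted alone (6.98%, beside 6.17% of all genes, 897, in that fit) and 0 to 3 without any 1 array (1 without HBL2 PT replicate 1 and 3 without HBL2 PT replicate 3). For the difference of the lines 3 were called, against 0 without _x_at and _s_at probe sets, 1 once those 3 arrays were removed and 0 to 7 without any 1 array (7 without HBL2 PT replicate 3, 1 without HBL2 BR replicate 2, JEKO PT replicate 2 or JEKO BR replicate 1, and 0 without JEKO BR replicate 2). For the PT cells 10 were called, against 6 with the median over probe sets, 6 without _x_at and _s_at probe sets and 5 to 13 without any 1 array (6 without JEKO PT replicate 1 and 5 without JEKO PT replicate 2). With 1 JEKO array removed its group holds 1 array, assumed to vary like the others. Apart from fewer arrays or members, the causes were not tested. In the 4 comparisons, members called in a comparison changed sign there in 0 alternatives. Several alternatives could not change a sign. No trend, separate fits and the removal of an array of the other line leave a line's change as it was.

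Of all genes tested, calls in HBL2 fell from 1711 to 1114 without HBL2 BR replicate 2. In JEKO they went from 622 to 389 with no trend, 135 once those 3 arrays were removed and 114 to 945 without any 1 array. For the difference of the lines 1266 became 620 without those 3 arrays and 661 to 1479 without any 1, and for the PT cells 3361 became 1984 to 3615.

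The replicate numbers were not shown to pair the arrays. Deviations of same-numbered HBL2 arrays correlated at 0.0167, 0.136 and 0.00752, and those of differently numbered ones at -0.202 to 0.155. PT replicate 1 correlated best with BR replicate 3 (0.155), and PT replicate 2 with BR replicate 2 (0.136). In JEKO same-numbered arrays correlated at 0.0781 and the others at -0.0781. With 2 arrays a group these values must mirror each other, so they cannot show or exclude pairing. With the replicate block 9 members were called in HBL2 (adding CTSZ and UBQLN2), 0 in JEKO and 3 for the difference, beside 12%, 4.14% and 8.65% of all genes.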

Other observations

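Within HBL2 PT, whose beta-actin 5' minus 3' values spread most (-1.25, -0.86 and -0.58 on replicates 1, 2 and 3), several members spread as well. WIPI2 read 2.75, 2.58 and 2.47, TFE3 1.76, 1.52 and 1.38, PSAP 2.34, 2.22 and 2.06 and UBB 3.55, 3.38 and 3.20 on those arrays. UVRAG read 1.52, 1.64 and 1.84, MAP1LC3B 1.61, 1.73 and 1.80 and GABARAPL2 2.18, 2.34 and 2.52. The first 4 genes were thus highest on the array with the lowest beta-actin value, and the last 3 were lowest there. The GAPDH controls, 5' minus 3', put the same arrays in another order, at -0.43, -0.27 and -0.44 on replicates 1, 2 and 3. These genes were chosen after their values were seen. With the beta-actin value as a covariate 11 members were called in HBL2, which added WIPI2, MAP1LC3B, OPTN and CTSS to the 7 named above, while calls among all genes went from 11.8% to 14.8%.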
